A study of Mus musculus with 4 samples.

Results

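The renin-angiotensin and aldosterone receptor genes read here were Agt, Ace, Enpep, Agtr1a, Agtr2 and Nr3c2, 6 genes of the 37074 gene names on the array. They were taken by their gene symbol, with every probe of that symbol, which gave 9 probes of 56605. Hearts of female *C57BL/6J* mice, 6 weeks old by the labels, were collected 3 h after the last of 2 daily intraperitoneal doses, and their RNA was hybridised to single-colour Agilent arrays. The conditions were N-acetylcysteine at 200 mg/kg before cyclophosphamide at 400 mg/kg (NAC + CY), cyclophosphamide at 400 mg/kg alone (CY), acrolein, a metabolite of cyclophosphamide, at 5 mg/kg, and normal saline (NS), the control. All mice were wild type, and each condition was read on 1 array, all 4 arrays on 1 slide. The labels and the methods give collection at 3 h, whereas some sentences of the study's text place it days later. The series description mentions 3 independent studies, and neither it nor the labels say whether RNA of several mice was pooled. With 1 array per condition there is no replicate check, and no p-value or SD between animals can be given.

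Angiotensinogen, the product of Agt, is secreted mainly by the liver and also by fat and other tissues, and renin cuts it to angiotensin I. Angiotensin-converting enzyme (Ace) turns this into angiotensin II, which aminopeptidase A (Enpep) shortens further. Angiotensin II acts through the type 1 receptor (Agtr1a and, in rodents, Agtr1b) to constrict vessels, promote growth and release aldosterone, and the type 2 receptor (Agtr2) often opposes it. Aldosterone binds the mineralocorticoid receptor (Nr3c2), which in tissues with little of the enzyme Hsd11b2 is largely occupied by glucocorticoids.

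The probes are oligonucleotides of 60 bases, and their first 30 bases are shown to identify which stretch of each gene gave a value. Agt, Ace, Agtr1a and Agtr2 have 1 probe each, Enpep has 2 and Nr3c2 has 3, numbered by signal.
Agt: cgtctccttggagactgcgctgaccgagaa
Ace: atgggggacatggtgtttgagtggaacata
Enpep probe 1: gctaagtgttcttcatgggaaagtctttac
Enpep probe 2: acaccagagaaattccaaaaaggctgtcag
Agtr1a: tcctccacatatatgtacatatgtatctct
Agtr2: ctctcataccccttccttgggaaaccctga
Nr3c2 probe 1: gccaaactgtctgtctgctcttatttttgt
Nr3c2 probe 2: aaagggttcaaaggactagagaacttttta
Nr3c2 probe 3: tcttcagcaagacaatagtcggtctgggat
On mm9, the build of the array files, the Agt probe lies at chr8:127080661-127080720 on the minus strand and the Ace probe at chr11:105850398-105850457 on the plus strand. The Enpep probes lie on the minus strand, the first at chr3:128972910-128972969 and the second at chr3:129002052-129006662, a span of 4611 bases for a probe of 60, so it joins separate stretches of the genome. The Agtr1a probe is at chr13:30474638-30474697 and the Agtr2 probe at chrX:21065805-21065864, both on the plus strand. The 3 Nr3c2 probes, in their order, are at chr8:79768704-79768763, chr8:79766784-79766843 and chr8:79432389-79432448 on the plus strand. Whether a probe lies in coding sequence or a UTR was not determined here. The Agtr1a probe shares no run of more than 7 bases with either probe of its paralog Agtr1b.

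Values are fluorescence signals after quantile normalisation over the 4 arrays, in arbitrary units, and differences are log2 ratios between 2 arrays. A probe was tested where it had a P flag, that is, a signal well above background, on at least 1 of the 2 arrays. A probe was called higher where its ratio reached 1.5 and its Z-score 2, and lower where its ratio was 0.66 or less and its Z-score -2 or less. The Z-score is the distance of a log2 ratio from the mean of the 200 probes nearest in signal, in SDs of those probes, and measures spread between probes, not between mice. At least 49.6% of probes on each treated array and 47.1% on the NS array were well above background, and none was saturated. Probes spotted repeatedly on 1 array differed by a median SD of 0.046 to 0.050 log2 units. Of the 9 member probes, 6 carried a P flag on all 4 arrays. The other 3, Enpep probe 2, Agtr2 and Nr3c2 probe 3, carried it on none and gave no ratio, so every member but Agtr2 was measured.

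**Figure D1:**
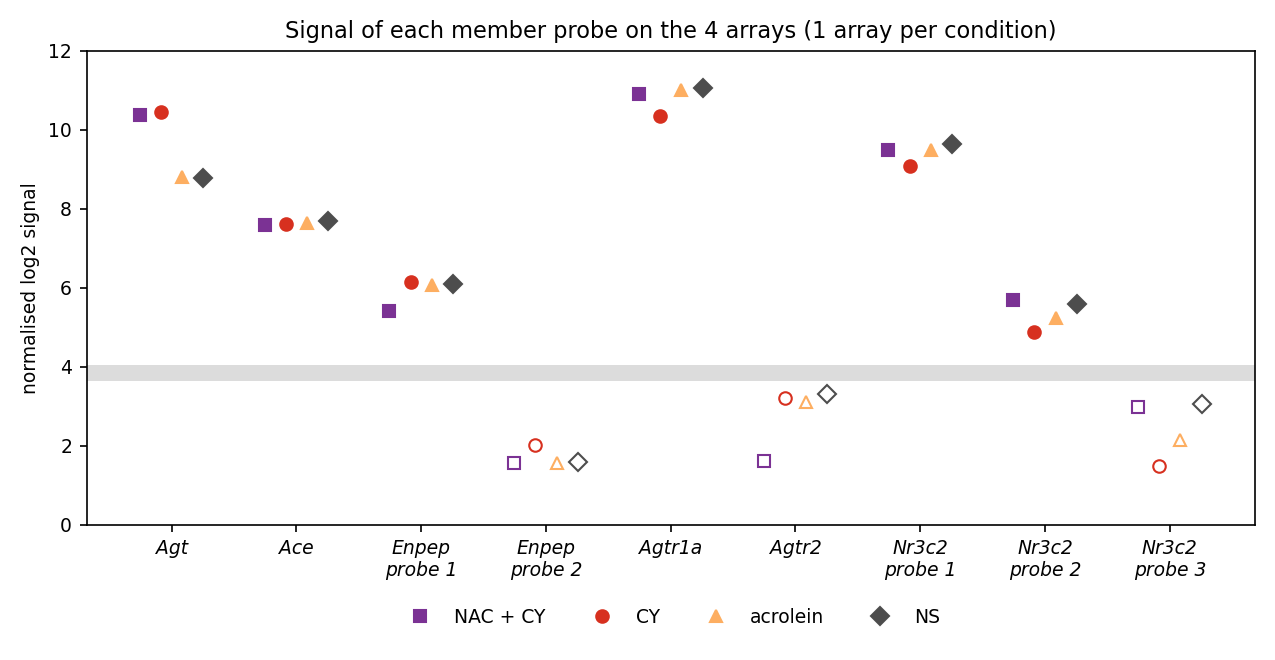
Normalised log2 signal (vertical axis) of the 9 member probes on the NAC + CY, CY, acrolein and NS arrays, 1 point per array. Filled points are well above background, open points are not, and the grey band spans the lowest well-above-background signals of the 4 arrays (3.65 to 4.04). Agt is high on the NAC + CY and CY arrays and lower on the acrolein and NS arrays, while Ace lies within 0.10 log2 units.

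Agt was the only member called in any comparison. Its signal was 1330 on the NAC + CY array, 1380 on CY, 448 on acrolein and 442 on NS. Both arrays from mice given cyclophosphamide were thus high, and the acrolein array was near NS. The signals before normalisation were also high on the cyclophosphamide arrays, with 1370 for NAC + CY, 1480 for CY, 423 for acrolein and 426 for NS, each with a spot error of 10% by the scanner software. In the CY heart Agt was 3.13-fold higher than in NS (log2 ratio 1.65, Z-score 3.31), and 3.48% of the 28757 probes tested had a larger absolute log2 ratio. In the NAC + CY heart it was 3.00-fold higher than in NS (1.58, Z-score 2.98), with 3.11% of 28885 probes larger. With acrolein its log2 ratio to NS was 0.02 (Z-score 0.128). Between NAC + CY and CY it was -0.06 (Z-score -0.356).

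These are 1 of 6 member probes called in CY against NS, where 5.39% of all probes were called (2.84% higher), and 1 of 6 in NAC + CY against NS, where 4.6% were (2.32% higher). None of 6 was called in acrolein against NS (background 2.29%) or in NAC + CY against CY (background 3.58%). A count of 1 in 6 probes is too small to set the members apart from the background. The 3 comparisons with NS use the same NS array, so an error on it would enter all of them. Under the 11 alternatives tried, the Agt log2 ratio was 1.5 to 1.66 in CY and the call was kept in all 11, whereas in NAC + CY it was 1.42 to 1.59 and the call was lost at a Z-score of 3, the value being 2.98.

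**Figure D2:**
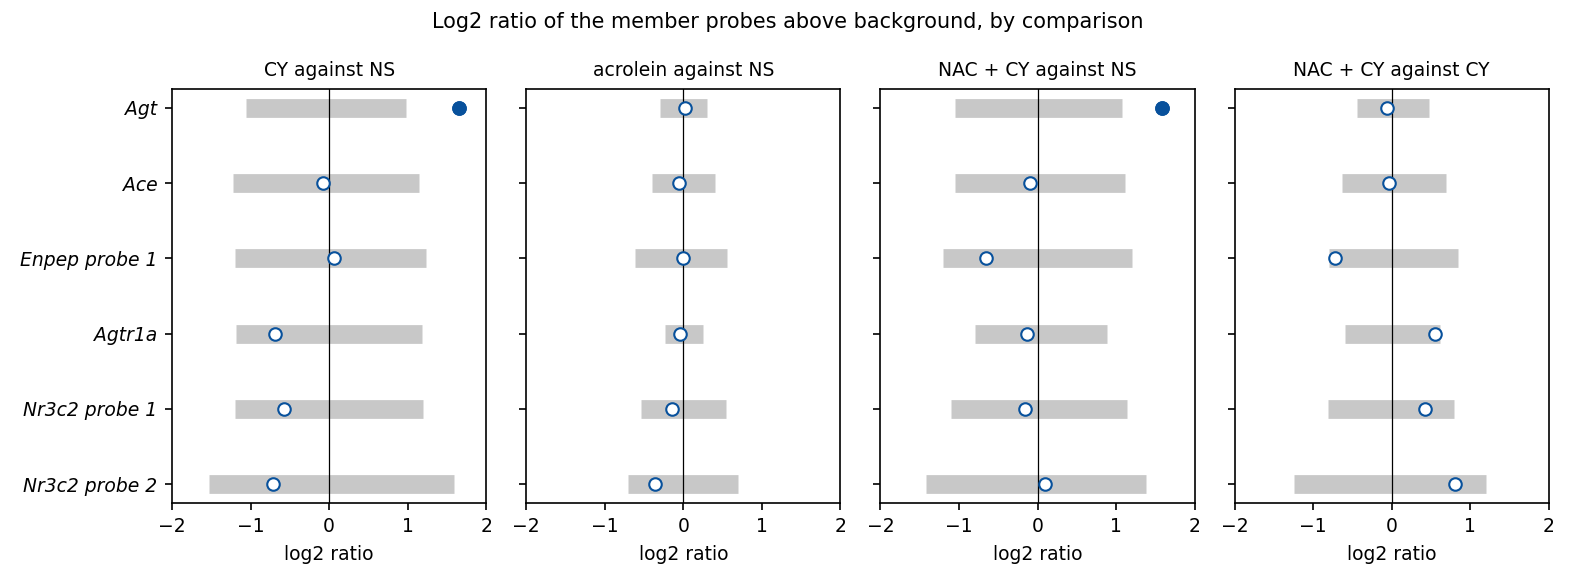
Log2 ratio (horizontal axis) of the 6 member probes above background in 4 panels, 3 of them set against NS and the last setting NAC + CY against CY. Grey bars are the mean ± 2 SD of the 200 probes nearest in signal, and filled points passed the call. Agt lies outside its bar in the CY panel (1.65) and in the NAC + CY panel set against NS (1.58), and the other points lie inside theirs.

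The bases before the Agt start are shown because Agt was the member called. They are from RefSeq on GRCm38.p6, at chr8:124569707-124569956 on the minus strand, 5′ to 3′, with the TATA box letters TATAAA in capitals.
Agt promoter: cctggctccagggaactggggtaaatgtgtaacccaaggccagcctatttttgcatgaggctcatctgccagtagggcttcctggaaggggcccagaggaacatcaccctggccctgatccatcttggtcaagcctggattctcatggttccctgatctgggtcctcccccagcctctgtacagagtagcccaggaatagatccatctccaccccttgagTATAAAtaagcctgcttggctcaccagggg
The match begins 30 bases before the start on the gene's own strand. Of 32851 promoter windows of 250 bases in the RefSeq table, 12.4% hold TATAAA on either strand. Among the uncalled members, 1 of 2 Ace windows and the Enpep window hold it on the opposite strand, and those of Agtr2 and Nr3c2 do not. The letters AGAACA, a half-site of corticosteroid receptors, are in 16.1% of windows on either strand, and none of the windows of Agt, Ace, Enpep, Agtr2 and Nr3c2 holds them. Most windows lack these letters, and sites outside the 250 bases were not searched. Agtr1a was not matched in that table.

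Hepatocytes and fat cells make Agt, so their markers are given beside it. The bulk tissue does not separate more cells of a type from more RNA per cell. Of 10 hepatocyte markers, Alb, Apoa1, Apoh and Fgb, which encode secreted plasma proteins, had no P flag on the CY array. Of the 6 measured in CY against NS, 3 were higher, namely the plasma proteins Ttr (log2 ratio 2.98) and Ahsg (2.57) and the cytochrome Cyp2e1 (2.26). The others were not called, with Apoa2 at -0.26, Serpina1a at -1.01 and Mup3 at least 2.14-fold above NS. All 10 had a P flag on the NAC + CY array, and 9 of 10 were higher there than in NS, with Alb at least 229-fold higher. Between NAC + CY and CY, 7 of 10 were higher and 1 lower, with Alb at least 294-fold higher. In acrolein 2 of 6 were lower than in NS. The summed signal of the hepatocyte list was 16400 on NAC + CY, 9170 on CY, 2020 on acrolein and 2650 on NS. On the CY array most of the sum was from Ahsg, at a log2 signal of 12.77. A bound of at least N-fold sets a probe against the lowest well-above-background signal on the dimmer array.

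Fat cell markers had a summed signal of 85300 on NAC + CY, 73200 on CY, 61400 on acrolein and 63600 on NS. Fabp4 made most of each sum, with log2 signals of 15.76 on NAC + CY, 15.74 on CY, 15.67 on acrolein and 15.6 on NS. Ucp1, the uncoupling protein of brown fat, was at a log2 signal of 12.62 on NAC + CY, 9.91 on CY, 7.26 on acrolein and 9.31 on NS. Of 10 fat genes, 6 were lower in acrolein than in NS (median log2 ratio -1.78). Of the same 10, 2 were higher in CY and 5 in NAC + CY than in NS, and 5 in NAC + CY than in CY. Between NAC + CY and CY the fat genes ran between -0.12 for Lipe and 2.71 for Ucp1, with Fabp4 at 0.02 and Cidea at 0.18. Whether fat or liver RNA adds to the Agt signal was not tested.

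**Figure D3:**
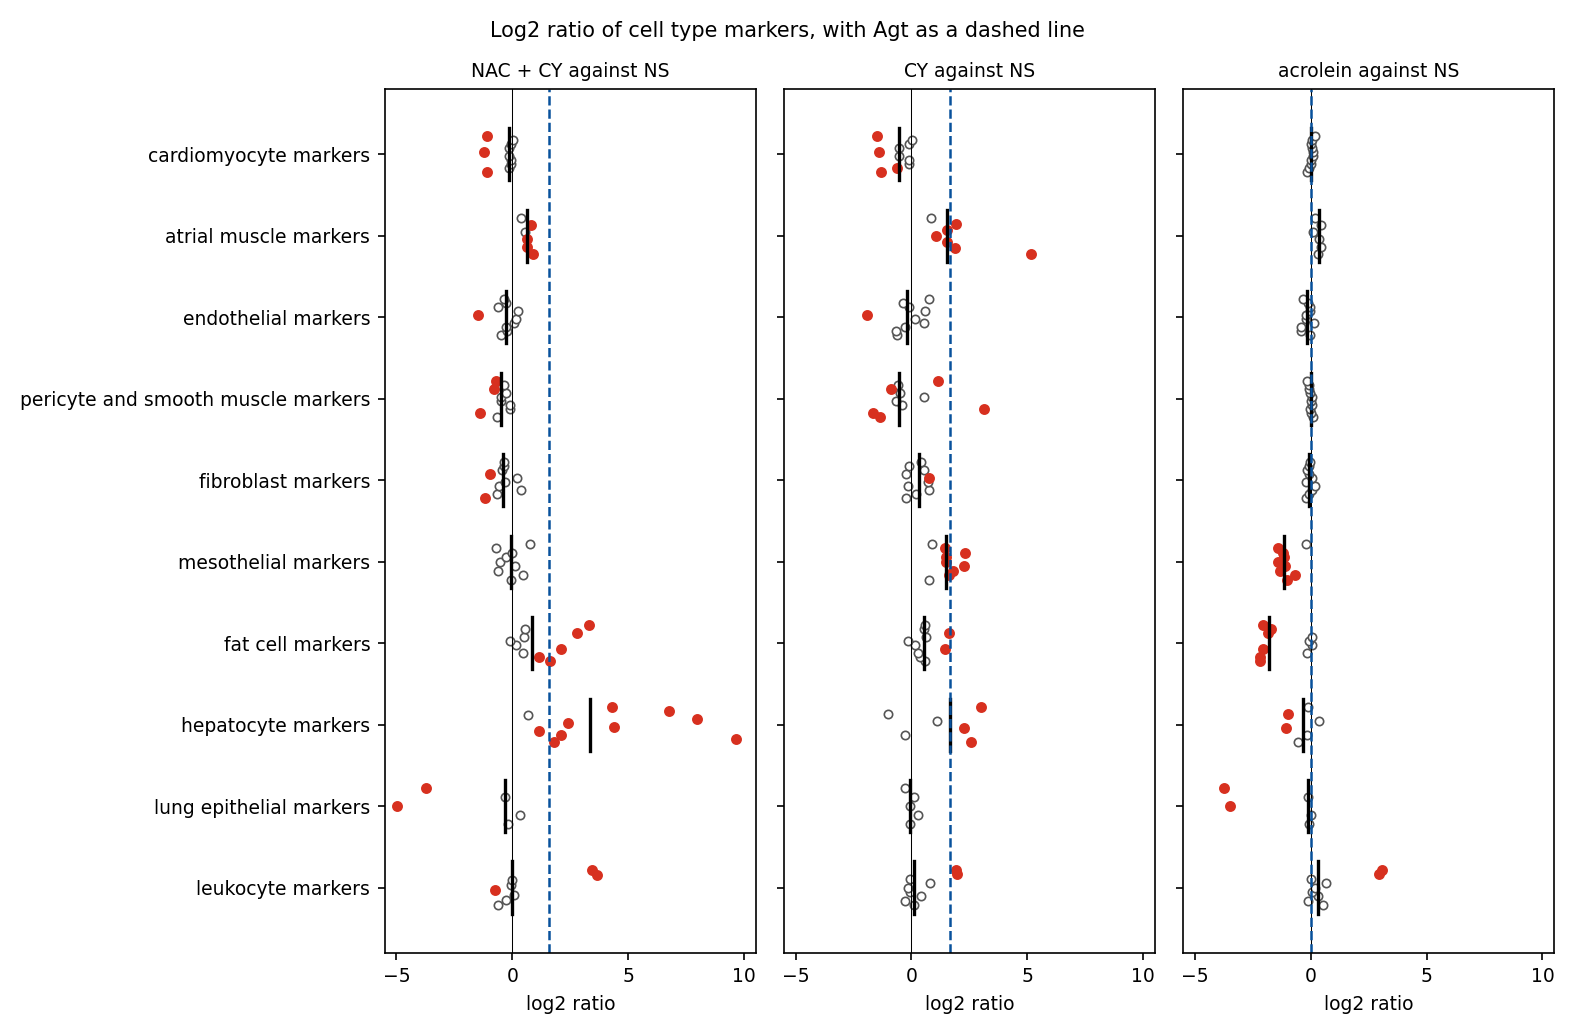
Log2 ratio to NS (horizontal axis) of cell type marker genes on the NAC + CY, CY and acrolein arrays, each gene by its brightest probe. Red points passed the call, black bars are list medians, and the dashed line is Agt (1.58 in NAC + CY, 1.65 in CY and 0.02 in acrolein). Hepatocyte markers extend farthest to the right on the NAC + CY array, and on the acrolein array 8 of 10 fat cell markers and all 9 mesothelial markers lie left of 0. A probe below background on 1 of the arrays is drawn at its measured ratio.

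Other cell type lists also differed between the arrays, and their part in the member values was not tested. Atrial muscle markers were higher in CY for 6 of 7 (median log2 ratio 1.53) and in NAC + CY for 4 of 6 (0.65), with none of 6 called in acrolein (0.34). Mesothelial markers were higher in CY for 7 of 9 (1.48), lower in acrolein for 8 of 9 (-1.15) and called for none in NAC + CY (-0.08). Fibroblast markers had 1 of 10 higher in CY (0.32), none called in acrolein (-0.06) and 2 lower in NAC + CY (-0.41). Cardiomyocyte markers, which define the labelled tissue, all had a P flag on every array, with a summed signal of 1370000 on NAC + CY, 1260000 on CY, 1560000 on acrolein and 1580000 on NS. Of these 10, 4 were lower in CY and 3 in NAC + CY than in NS, and none was called in acrolein. Endothelial markers had 1 of 10 lower in CY and 1 in NAC + CY, and none called in acrolein. Lung epithelial markers had none of 5 called in CY, and 2 lower in acrolein and 2 in NAC + CY. Leukocyte markers had 2 of 9 higher in CY, 2 of 9 in acrolein and 2 of 8 in NAC + CY, with 1 lower in NAC + CY.

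Among the enzymes, Ace was nearly level. Its signal was 192 on NAC + CY, 195 on CY, 198 on acrolein and 206 on NS, a range of 0.10 log2 units. The log2 ratio was -0.10 in NAC + CY, -0.08 in CY and -0.06 in acrolein against NS, and -0.03 between NAC + CY and CY. Enpep probe 1, for aminopeptidase A, had signals of 42.9 on NAC + CY, 70.6 on CY, 67.4 on acrolein and 67.9 on NS. Only the NAC + CY array was low, with a log2 ratio of -0.66 to NS (Z-score -1.10) and -0.72 to CY (Z-score -1.79), and neither was called. The ratio alone passed its limit of 0.66 in both comparisons. So did 2766 of 28885 probes in the first and 2176 of 29350 in the second. Counting both directions, 19.8% and 13.7% of all probes passed a ratio limit. The comparison with CY reached a Z-score of -2.16 and a call with a window of 100 probes. Enpep probe 2 was below the background level on all arrays, so no second probe of the gene bears on this value.

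The type 1 receptor gene Agtr1a had a signal of 1920 on NAC + CY, 1310 on CY, 2060 on acrolein and 2120 on NS. The CY array was the lowest, and the other arrays lay between 1920 and 2120. Its log2 ratio to NS was -0.14 in NAC + CY (Z-score -0.438), -0.69 in CY (Z-score -1.18) and -0.04 in acrolein (Z-score -0.404). Against CY, NAC + CY was at 0.55 (Z-score 1.82). None of these was called. In CY the ratio of 0.618 alone passed the limit of 0.66, as did 3193 of the 28757 probes tested. Counting both directions, 22.9% passed a ratio limit, which shows how wide the CY comparison is. Its median window SD was 0.58 log2 units, against 0.22 in acrolein against NS.

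Agtr1a is known from fibroblasts and from the mural cells of vessels, and the markers of pericytes and smooth muscle had a summed signal of 20500 on NAC + CY, 22100 on CY, 39900 on acrolein and 40000 on NS. In CY 3 of 10 were lower and 2 higher than in NS, in NAC + CY 3 were lower, and in acrolein none was called. Acta2, the brightest of the list on every array, was lower in NAC + CY (-1.40) and CY (-1.64). The call held for 2 of its 3 measured probes in NAC + CY and 1 of 3 in CY. Cnn1 differed from the sum, at -0.11 in NAC + CY and higher in CY (3.11, by 1 of its 2 measured probes). In CY Abcc9 (-1.38) and Pdgfrb (-0.89) were also lower and Tagln (1.14) was also higher. Pdgfrb (-0.81) and Tagln (-0.72) were lower in NAC + CY, so Tagln moved in opposite directions in CY and NAC + CY. Of the 10 log2 ratios to NS, 7 lay below 0 in CY and all 10 in NAC + CY. By brightest probe, Cnn1 (-3.22), Tagln (-1.86) and Myh11 (-1.03) were lower in NAC + CY than in CY, and Abcc9 (0.70) was higher. Of 10 fibroblast markers, 5 were lower and none higher in NAC + CY than in CY (median log2 ratio -0.78). The part of either list in the Agtr1a values was not tested. Agtr2 was not well above background on any array, with signals of 3.05, 9.23, 8.55 and 9.84 on NAC + CY, CY, acrolein and NS, and no ratio is given. Agtr1b, the rodent paralog of the type 1 receptor, had no P flag on any array either.

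Nr3c2, the mineralocorticoid receptor, was lowest on the CY array by both measured probes. Probe 1 had 715 on NAC + CY, 536 on CY, 717 on acrolein and 798 on NS. Probe 2 had 51.3 on NAC + CY, 29.4 on CY, 37.6 on acrolein and 48.1 on NS. The log2 ratio of CY to NS was -0.57 by probe 1 (Z-score -0.953) and -0.71 by probe 2 (Z-score -0.952), so both were within 1 SD of their window and neither was called. With acrolein the log2 ratios were -0.15 and -0.36 (Z-scores -0.558 and -1.01). In NAC + CY against NS they were -0.16 and 0.09, and the probes differed in sign. Against CY, NAC + CY was at 0.42 by probe 1 (Z-score 1.07) and 0.80 by probe 2 (Z-score 1.36). Probe 3 was not well above background on any array.

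The gene probes nearest to each member over the 3 log2 ratios to NS were sought among 25570 probes with a P flag on all 4 arrays. For Agt these were H1f2, a linker histone (distance 0.085 log2 units), 4732465J04Rik (0.11), Ctnnal1 (0.15), Eva1c (0.17) and Pdlim3 (0.21), and 5 probes lay within 0.2. The 3373 probes within 0.2 of Ace show that its level pattern is a common one. Within the same distance there were 427 probes for Nr3c2 probe 1, 255 for Agtr1a and 69 for Enpep probe 1. The nearest were Atg2b to Nr3c2 probe 1, Cap1 to Nr3c2 probe 2, Actr3b to Agtr1a, D630033O11Rik to Enpep probe 1 and TC1726791 to Ace.

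**Figure D4:**
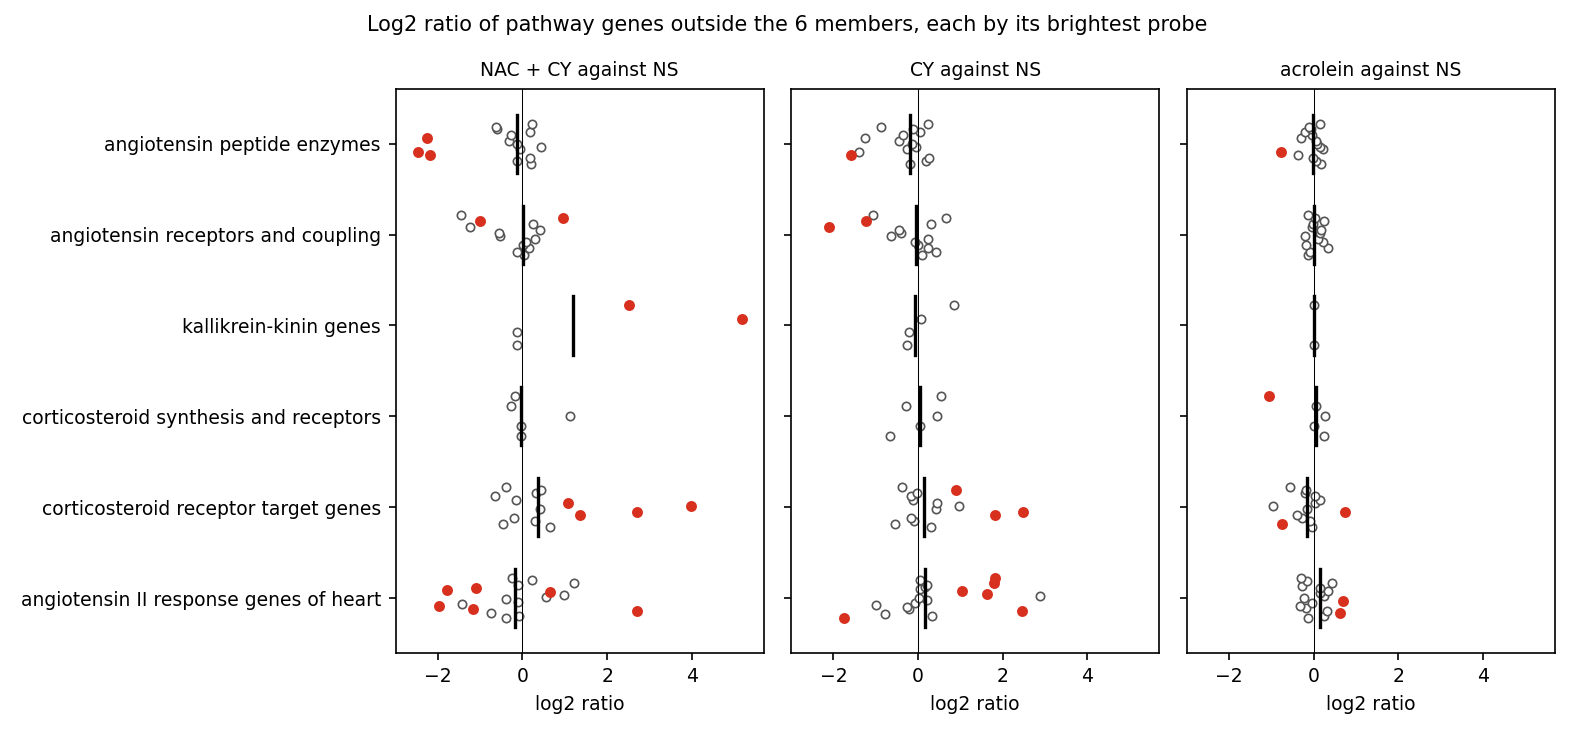
Log2 ratio to NS (horizontal axis) of genes of the angiotensin, kinin and corticosteroid pathways outside the 6 members on the NAC + CY, CY and acrolein arrays, each gene by its brightest probe. Red points passed the call and black bars are list medians. A probe below background on 1 of the arrays is drawn at its measured ratio, which holds in NAC + CY for Cpa3 (at least 4.42-fold lower), Kng1 (at least 33.4-fold higher) and Kng2 (at least 2.33-fold higher), while Cma1 and Mcpt4 lie at -2.19 and -2.25.

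The wider pathway was read by 6 lists of other genes. Of all genes, each by its brightest probe, 6.2% were called in CY (3.38% higher, 2.82% lower), 2.38% in acrolein (1.08% higher, 1.29% lower) and 5.27% in NAC + CY (2.68% higher, 2.6% lower). Set against CY, the NAC + CY array had 4.36% called (1.54% higher, 2.82% lower). Over all probes the median log2 ratio was within 0.03 of 0 in every comparison. The lists together had 12 of 71 measured genes called in CY, 6 of 67 in acrolein and 17 of 70 in NAC + CY, and 13 of 72 where NAC + CY was set against CY.

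Of 15 measured enzymes that form or degrade angiotensin peptides, none was higher. In NAC + CY against NS 3 were lower by their brightest probes, all proteases of mast cells. Thop1 lay at 0.23 in NAC + CY and CY by its brightest probe, but 1 of its 3 measured probes was lower in each. Cma1, a chymase that can form angiotensin II, had log2 signals of 4.85 on NAC + CY, 5.46 on CY, 6.67 on acrolein and 7.03 on NS, so both cyclophosphamide arrays were low. Its log2 ratio was -2.19 in NAC + CY and -1.58 in CY, both called, and -0.36 in acrolein, which was not. The CY call was lost with a window of 100 probes (Z-score -1.98). Mcpt4, another chymase, was lower in NAC + CY (-2.25) and lay at -1.25 in CY, and NAC + CY was also lower than CY (-1.0). Cpa3, the mast cell carboxypeptidase, was at least 4.42-fold lower in NAC + CY, lay at -1.40 in CY and was lower in acrolein (-0.78). Prep, which cleaves angiotensin peptides after proline, lay at -0.63 in NAC + CY and -0.87 in CY, without a call in either. The other uncalled enzymes named by size were Prcp (-0.60) and Ctsd (0.43) in NAC + CY. The median of the list was -0.14 in NAC + CY, -0.20 in CY and -0.02 in acrolein. Renin (Ren1) had no P flag on any array.

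Of 14 measured genes of receptors and their coupling, 2 were lower in CY, namely the phospholipase Plcb1 (-2.11, by 2 of its 3 probes) and the protein kinase Prkca (-1.22). Both act downstream of the Gq proteins through which the type 1 receptor signals. In NAC + CY Prkca was lower (-1.01) and Plcb1 was at -1.24 without a call by its brightest probe, while 1 of its 3 probes was lower. Rgs2, which limits Gq signalling, was higher in NAC + CY (0.96) and lay at 0.66 in CY. Rgs4, which also limits Gq signalling, lay at -1.45 in NAC + CY and -1.06 in CY, without a call in either. Other uncalled genes of the largest size were Itpr1 (-0.55) in NAC + CY and Gnaq, the Gq subunit itself, at -0.53 in NAC + CY and -0.64 in CY, and none of the 14 was called in acrolein. The median was 0.02 in NAC + CY, -0.05 in CY and 0.01 in acrolein.

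Kininogens, which yield the kinins that Ace degrades, were seen on the NAC + CY array. Kng1 had log2 signals of 9.11 on NAC + CY, 4.77 on CY, 3.34 on acrolein and 3.91 on NS, and NAC + CY was at least 33.4-fold higher than NS, and 4.33 log2 units above CY. Kng2 was at least 2.33-fold higher than NS. These 2 of the 4 measured kinin genes were called in NAC + CY, and none of 4 in CY and none of 2 in acrolein. Kininogens are made by hepatocytes, whose markers were high on the same array, and their part in these values was not tested. The closely related Kng1 and Kng2 can share signal.

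Of 5 measured genes of corticosteroid synthesis and receptors, none was called in CY or in NAC + CY against NS. Star, which brings cholesterol into mitochondria, was lower in acrolein (-1.06), a call lost with normexp background correction. Hsd11b1, which regenerates active glucocorticoid, was at 1.12 in NAC + CY and 0.45 in CY against NS without a call, and was higher in NAC + CY than in CY (0.67). The glucocorticoid receptor Nr3c1 was at -0.27 in NAC + CY, -0.28 in CY and 0.06 in acrolein. The aldosterone synthase gene Cyp11b2 and Hsd11b2 had no P flag on any array.

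Of 14 measured target genes of corticosteroid receptors, 4 were higher in NAC + CY, 3 in CY and 1 in acrolein than in NS. Fkbp5, which lowers the hormone affinity of these receptors, had log2 signals of 11.44 on NAC + CY, 11.89 on CY, 9.68 on acrolein and 10.08 on NS. It was higher in NAC + CY (1.36, by 1 of its 3 measured probes) and CY (1.81, by 2 of 3). Its log2 ratio in acrolein was -0.40. Tsc22d3, a glucocorticoid-induced leucine zipper gene, was higher in CY (0.90) and at 0.44 in NAC + CY, where 1 of its 2 probes was called higher. The clock gene Per1 was higher in NAC + CY (1.07) and at 0.45 in CY. Lcn2, an iron-binding protein of the acute phase, was higher on the 3 treated arrays. It was up by 2.70 in NAC + CY, 2.47 in CY and 0.73 in acrolein, where 1 of its 2 measured probes was called. Orm1, an acute-phase gene of the liver, was higher by 3.99 in NAC + CY. Sgk1, a kinase gene that aldosterone induces in the kidney, was at 0.32 in NAC + CY, -0.02 in CY and -0.20 in acrolein, none called. The median was 0.37 in NAC + CY, 0.14 in CY and -0.17 in acrolein.

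The list of genes known to respond to angiotensin II in heart had 5 of 19 higher and 1 lower in CY, 2 higher and none lower of 17 in acrolein, and 2 higher and 4 lower of 18 in NAC + CY. Ccn2, a matrix protein of fibrosis, was higher in NAC + CY (2.70) and CY (2.45), and was at 0.31 in acrolein. The atrial peptide gene Nppa was higher in NAC + CY (0.64) and CY (1.05), as were other atrial markers, and the NAC + CY call was lost with scaling by the 75th percentile (0.41). In CY the higher genes also included Timp1 (1.82), Lox (1.62) and Spp1, at least 1.87-fold, whose call was lost with normexp correction, and the skeletal actin Acta1 was lower (-1.75). In NAC + CY the collagens Col3a1 (-1.98) and Col1a1 (-1.17), Postn (-1.11) and the natriuretic peptide gene Nppb (-1.78) were lower. For Postn the call held for 1 of its 3 measured probes. In acrolein Egr1 (0.70) and Ccl2 (0.62) were higher. Set against CY, the NAC + CY heart had 1 of 19 higher, Acta1 (1.37), and 6 lower. Among the lower were Timp1 (-2.06), Nppb (-1.83) and Col3a1 (-1.73, by 1 of its 2 measured probes). The genes of the list thus moved in both directions, and its median was -0.17 in NAC + CY, 0.17 in CY and 0.16 in acrolein.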

How the data were processed

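The deposited intensity values are background-subtracted signals of each spot, extracted by the authors with Agilent Feature Extraction, which the headers give as version 10.7.1.1 and the submitters' processing notes as 9.5.1.1. The authors' value table of the series, with a median of 13.9 on every array, was used as an alternative and moved no member log2 ratio by more than 0.0177. Control spots were left out, the 59305 other signals were put on a log2 scale and quantile-normalised over the 4 arrays, spots of a probe were averaged, and calls followed the criteria in the study's methods (P flag, Z-score and ratio), with a window of 200 probes chosen here. A P flag was taken as a positive, significant signal, well above background, not saturated and without outlier flags. Groups were taken from the sample titles. The precision is limited by having 1 array for each.

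The members and gene lists were chosen with earlier results of these data known. Named genes are all member probes, the called genes of each list with up to 4 others of largest absolute log2 ratio, and the 5 nearest genes of each member. Ren1, Agtr1b, Sgk1, Cyp11b2 and Hsd11b2 were named besides for their place in the pathway, after their values had been seen, as were values of named genes repeated in other comparisons. Thop1 was named for the call of a dimmer probe, likewise after its values had been seen. Some genes counted in the lists are not reported here by name. A gene of a list is read by its brightest P-flagged probe. Alternatives covered the normalisation, background correction (normexp, offset 50), filter, window, criteria and value table. The calling step was tested on simulated data. Python 3.11.15 with numpy 2.4.6, pandas 2.3.3 and matplotlib 3.10.9, and limma 3.58.1 in R 4.3.3, were used.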

Additional observations from a re-analysis of the deposited data

How the results depend on the processing

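No paired analysis was possible because each condition has 1 array, and for the same reason no array could be left out. Of the 6 member probes, 1 was called in CY against NS, and the ratio alone gave 3 (Agt, with Agtr1a and Nr3c2 probe 2 lower). In NAC + CY against NS, where 1 was called, a Z-score of 3 gave 0 and the ratio alone 2 (Agt, with Enpep probe 1 lower). In NAC + CY against CY, where none was called, a window of 100 probes gave 1 (Enpep probe 1 lower) and the ratio alone 2 (Enpep probe 1 lower, Nr3c2 probe 2 higher). Acrolein against NS had 0 under all 11 alternatives. For the pathway lists, a Z-score of 3 gave 7 genes in CY (12 in the reported setting), 11 in NAC + CY against NS (17) and 8 in NAC + CY against CY (13), and the ratio alone gave 24, 28 and 21 in the same order. A ratio of 2 or 0.5 gave 1 in acrolein (6 in the reported setting) and 8 in NAC + CY against CY, and normexp correction gave 2 in acrolein, where it called 0.412% of all probes (2.29% in the reported setting). Normexp correction also ended the calls of Kng2 in NAC + CY, of Hsd11b1 and Mcpt4 between NAC + CY and CY, and of Star, Cpa3, Egr1 and Ccl2 in acrolein. The stricter or looser criteria change counts by construction, and the cause of the normexp change was not tested. No value that was called changed sign under the alternatives. Probes below background, among them Agtr2, give no ratio at this signal.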
